A study of Mus musculus with 4 samples.

Results

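Of the 20555 genes in the deposited table, 7 are considered here: 6 genes that encode variant forms of ribosomal proteins (Rpl22l1, Rpl39l, Rpl7l1, Rps27l, Rpl36al and Rpl3l) and Rps3a3, a processed copy of Rps3a1. They were found by symbol, and each was set beside the gene it derives from or resembles, called its parent: Rps3a1, Rpl22, Rpl39, Rpl7, Rps27, Rpl36a and Rpl3. The 7 genes were chosen with their values in these libraries already known, so their differences between groups are described without a test. The RNA was extracted from whole mammary tumours that arose in mice with PyMT, a polyoma virus middle T antigen transgene widely used to induce such tumours. Both groups carry PyMT, and each had 2 libraries. Control-PyMT is labelled with PyMT alone, and MYC-PyMT with S100a8-cre and Rosa26-LSL-MYC besides PyMT, so that Cre recombination frees MYC, placed in the Rosa26 locus, from a stop cassette. S100a8 is strongly expressed by neutrophils, and in which cells of these tumours Cre acted was not tested. The labels give no age and no mouse identity. No label tells whether both libraries of a group are from different mice, so the p-values reflect only how these libraries varied, which may be technical.

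A ribosome has a small (40S) and a large (60S) subunit, each built of ribosomal RNA and ribosomal proteins, and nearly every cell makes all of these proteins. For a few of them the genome holds a second, intact gene whose protein can take the parent's place or has a task of its own. Mammalian genomes also hold many processed copies, made by reverse transcription of ribosomal protein mRNA and inserted elsewhere, most of which are regarded as pseudogenes. Since MYC is known as an activator of ribosome building, ribosomal protein genes and their assembly factors are commonly followed in MYC-driven tumours.

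The sequences decide how far a short read can tell a copy from its parent, so the coding stretches of the most informative pairs are shown. All were taken from the GENCODE mouse release 21 transcripts (GRCm38), 5′ to 3′, and capitals mark the bases that differ within the pair. In the Rps3a pair, bases 214 to 363 are shown, counted from 1 at the A of the Rps3a1 start codon. For Rps3a3 they lie at chr13:108670816-108670965 on the plus strand. This stretch holds the 3 substitutions nearest the start codon.
Rps3a1: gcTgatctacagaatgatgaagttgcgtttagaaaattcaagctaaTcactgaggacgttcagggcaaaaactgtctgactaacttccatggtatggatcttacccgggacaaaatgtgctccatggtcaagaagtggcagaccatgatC
Rps3a3: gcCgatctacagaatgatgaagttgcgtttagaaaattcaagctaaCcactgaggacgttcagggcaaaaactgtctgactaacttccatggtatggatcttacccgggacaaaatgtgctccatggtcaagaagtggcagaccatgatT
The Rps27 pair, whole coding sequence, is shown because differences are spread over its entire length.
Rps27: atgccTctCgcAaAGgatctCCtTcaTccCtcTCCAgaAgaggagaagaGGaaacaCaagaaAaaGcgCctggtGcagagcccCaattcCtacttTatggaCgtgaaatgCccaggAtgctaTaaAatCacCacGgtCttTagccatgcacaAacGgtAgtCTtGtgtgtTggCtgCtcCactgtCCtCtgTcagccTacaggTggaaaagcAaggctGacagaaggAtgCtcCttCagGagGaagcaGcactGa
Rps27l: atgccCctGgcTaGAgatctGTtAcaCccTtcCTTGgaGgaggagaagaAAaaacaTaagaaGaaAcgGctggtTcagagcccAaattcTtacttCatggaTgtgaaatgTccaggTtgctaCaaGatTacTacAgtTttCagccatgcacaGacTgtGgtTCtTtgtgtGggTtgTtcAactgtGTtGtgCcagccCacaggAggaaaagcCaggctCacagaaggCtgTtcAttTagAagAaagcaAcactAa
The first 150 coding bases of the Rpl36a pair show a pair of intermediate likeness.
Rpl36a: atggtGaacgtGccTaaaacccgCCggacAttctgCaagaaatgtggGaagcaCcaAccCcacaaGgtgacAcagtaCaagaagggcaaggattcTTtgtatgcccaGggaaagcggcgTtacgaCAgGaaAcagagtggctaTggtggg
Rpl36al: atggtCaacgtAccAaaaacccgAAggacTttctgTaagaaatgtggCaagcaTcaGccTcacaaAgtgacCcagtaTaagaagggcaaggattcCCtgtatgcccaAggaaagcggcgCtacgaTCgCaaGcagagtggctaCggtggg

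Rps3a3 differed from Rps3a1 at 9 of 795 coding positions (98.9% identity), and its longest run without a difference was 215 bases. With the Rps3a1 base first, the substitutions are T216C, T260C, C363T, A427T, T534C, G582T, A660G, C762T and G792A. Of these, 7 keep the encoded amino acid, and T260C and A427T change it. The copy keeps an open frame of 264 codons with 0 stops inside it, although it is annotated as a processed pseudogene. A further copy, Rps3a2, differs from Rps3a1 at 4 positions and in 3 gap columns, and shares 2 of its substitutions with Rps3a3. The other pairs were less alike over their aligned coding sequence: 87.9% for Rpl36al, 85.3% for Rpl39l, 76.1% for Rps27l, 73.2% for Rpl3l, 66.7% for Rpl22l1 and 52.1% for Rpl7l1. Gap columns count as differences here, which lowers the last 3 figures. They were 26 of 1231 columns for Rpl3l, 48 of 402 for Rpl22l1 and 194 of 874 for Rpl7l1.

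**Figure D1:**
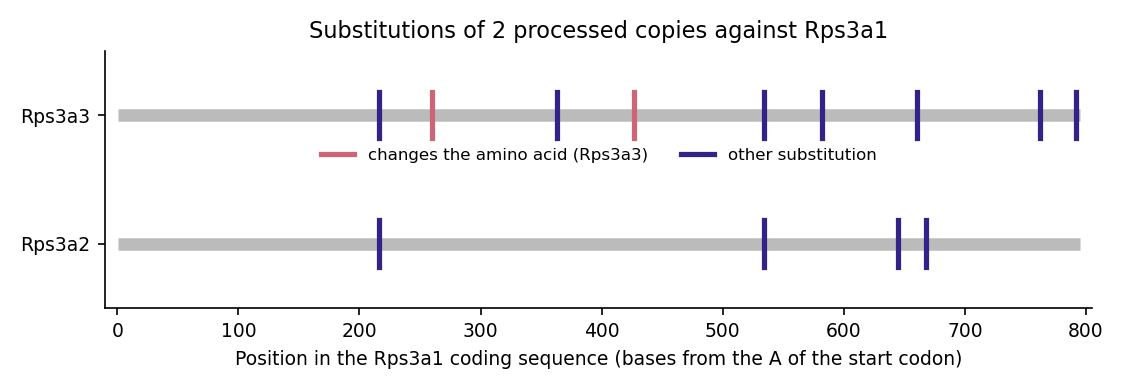
Positions at which the copies Rps3a3 and Rps3a2 differ from Rps3a1, along the coding sequence in bases from the A of the start codon. Each tick is 1 substitution, and the 2 red ticks mark those of Rps3a3 that change the encoded amino acid. Neighbouring Rps3a3 substitutions lie 30 to 107 bases apart.

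Identity over a whole coding sequence does not say how many reads are ambiguous, so every stretch of 75 bases in each reference transcript was looked up in all other annotated genes. Read length and counting rule are missing from the sources used here, so 50 and 100 bases were tried beside 75. For Rps3a3, 327 of 721 stretches of 75 bases (45.4%) also occurred in another gene; of all stretches, 32.0% occurred in Rps3a1 and 43.3% in Rps3a2. The share was 65.1% at 50 bases and 31.6% at 100. Rps3a3 levels are therefore uncertain wherever reads could be split or moved between copies. For Rps27l 12.0% of the 75-base stretches were shared, for Rpl7l1 3.87%, and for Rpl39l and Rpl3l 0%. Rpl22l1 shared 58.6%, mostly with Gm15421 (49.0%) and with the antisense gene Gm33051, whose exons overlap its own. Rpl36al shared 61.3%, and its exons overlap those of Gm49383 on the same strand. The copies found for Rpl22l1 had little signal, with Gm15421 at 53.9 scaled counts as the Control-PyMT mean and 186 as the MYC-PyMT mean.

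Levels are given as scaled counts, whole reads divided by a size factor for each library and not by gene length. Libraries held 31783846 to 34190913 reads, and 1 read was worth 0.849 to 1.10 scaled counts. The mouse Myc gene had 1832 and 2820 scaled counts in Control-PyMT, against 3215 and 2815 in MYC-PyMT (log2 difference 0.40, SE 0.23, limma adjusted p = 0.172), and whether this row holds reads of the introduced MYC was not tested. The summed level of 15 mammary epithelium markers was 473475 and 470737 scaled counts in Control-PyMT, against 228454 and 281982 in MYC-PyMT, with none at 0 in all libraries. In Control-PyMT most of that sum was Csn3, a casein gene, with a mean of 300280 scaled counts there and 95908 in MYC-PyMT. Of the 15, 3 rose and 6 fell (median -0.32), beside 23.3% and 24.6% of all tested genes in those directions. Csn2 and Wap, both milk protein genes, rose by 4.82 and 2.81, while the keratin gene Krt7 fell by 1.78 and Csn3 fell by 1.67 (in this order, limma adjusted p = 0.000161, 3.27e-05, 0.000407 and 0.00117). The summed level of 17 leukocyte markers was 20395 and 19163 scaled counts in Control-PyMT, against 25867 and 26596 in MYC-PyMT, with none at 0 in all libraries. Yet more of them fell than rose: of 16 tested, 4 rose and 7 fell (median -0.49). The 4 that rose were 25%, near the 23.3% of all tested genes, while 24.6% of all tested genes fell. Camp, a neutrophil granule gene, and Cd68, a macrophage gene, rose by 3.25 and 1.38, while Cd8a, of cytotoxic T cells, fell by 4.05 and Ms4a1, of B cells, fell by 2.91 (in this order, limma adjusted p = 0.00432, 0.000312, 7.92e-05 and 0.00685). Camp was near the floor, at 2.81 and 0 scaled counts in Control-PyMT, against 20.1 and 15.4 in MYC-PyMT. Ms4a1 was low too, at 12.2 and 12.7 in Control-PyMT, against 0 and 2.20 in MYC-PyMT. In bulk tissue, fewer cells of a type and less RNA per cell cannot be told apart. Their part in the differences described here was not tested.

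Among the members, 6 of 7 reached 10 scaled counts in at least 2 libraries, and 5 of these had an adjusted p under 0.05 in the fit over all 16725 tested genes, all 5 higher in MYC-PyMT. In that fit 47.9% of all genes were called, 23.3% as higher and 24.6% as lower in MYC-PyMT. The same 5 did not overlap between groups, with MYC-PyMT above, which held for 37.0% of all tested genes (75.7% did not overlap in either direction). The members were chosen on this contrast, so nothing is read from these counts. The 5 were Rps3a3, Rpl22l1, Rpl7l1, Rps27l and Rpl36al. Rpl39l was tested and not called, and Rpl3l fell below the level filter.

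**Figure D2:**
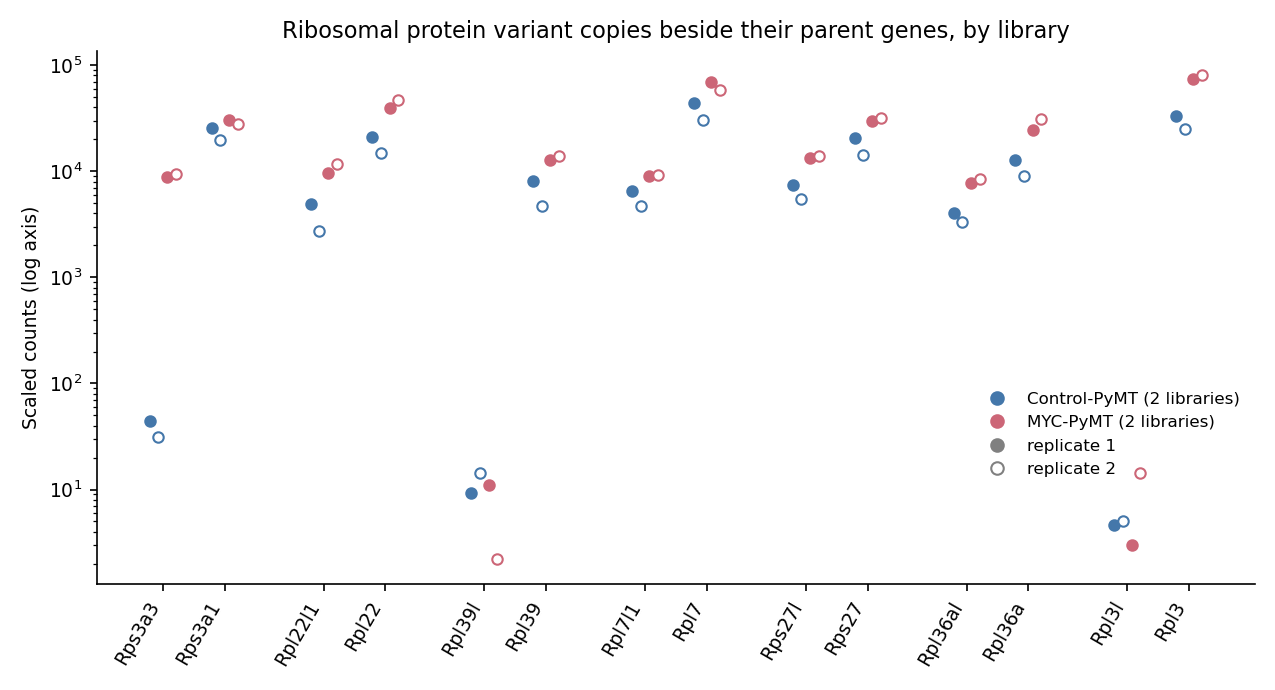
Scaled counts of the 7 members and their parents in each of the 4 libraries, on a log axis, in blue for Control-PyMT and red for MYC-PyMT, filled for replicate 1 and open for replicate 2. Rps3a3 moves from 31.4 to 44.0 scaled counts in Control-PyMT to 8842 and 9325 in MYC-PyMT, while Rps3a1 stays between 19623 and 30377.

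Rps3a3 (ENSMUSG00000059751.7) lies on chromosome 13, 108670603 to 108671397, plus strand, within Pde4d and on its strand, with no exon of Pde4d overlapping it. RPS3A, the protein its parent encodes, is a component of the 40S subunit that takes part in translation initiation. Rps3a3 was at 44.0 and 31.4 scaled counts in the Control-PyMT libraries (47 and 37 reads), and at 8842 and 9325 in the MYC-PyMT libraries (8786 and 8485 reads). Both MYC-PyMT libraries were far above both Control-PyMT libraries, which were close to each other. The means were 37.7 ± 8.86 and 9083 ± 341 scaled counts (SD, n = 2 each), a log2 difference of 7.89 (SE 0.23), the highest of all tested genes. Pde4d, the phosphodiesterase gene around it, moved the other way, from 327 and 299.8 to 188 and 151 scaled counts, and fell by 0.89 on the log2 scale (SE 0.26, limma adjusted p = 0.0185).

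Rps3a1 (chromosome 3, 86137940 to 86142702, minus strand) was at 25581 and 19623 scaled counts in Control-PyMT and at 30377 and 28093 in MYC-PyMT. The groups did not overlap, yet the difference of 0.38 on the log2 scale (SE 0.22) did not pass the test (limma adjusted p = 0.170). Of the 80 cytosolic ribosomal protein genes, Rps3a1 had the lowest log2 difference. With the trend of the log2 difference on gene length removed, it was -0.032 (adjusted p = 0.915). Rps3a2 (named as the other close copy; chromosome 14, 88123017 to 88123808, minus strand), also a processed copy, was at 165 and 116 scaled counts in Control-PyMT and at 575 and 393 in MYC-PyMT. It rose by 1.78 (SE 0.30, limma adjusted p = 0.00101).

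Because reads may be split among the copies, their scaled counts were also added. Rps3a1 and Rps3a3 together were at 25625 and 19654 scaled counts in Control-PyMT and at 39219 and 37418 in MYC-PyMT, a log2 difference of 0.77 (SE 0.22). The sum holds Rps3a3, which was chosen on this contrast, so it is given without a test. Set among the same 80 genes, the sum still had the lowest log2 difference. Rpl7 came next at 0.80 (SE 0.25), a gap smaller than either SE. Rps3a3 made up 0.170% and 0.159% of the scaled counts of Rps3a1, Rps3a2 and Rps3a3 in Control-PyMT, against 22.2% and 24.7% in MYC-PyMT. In mean scaled counts, Rps3a1 was higher by 6633 in MYC-PyMT and Rps3a3 by 9046. Whether reads of 1 copy were counted to another was not tested, since the reads were not used here.

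**Figure D3:**
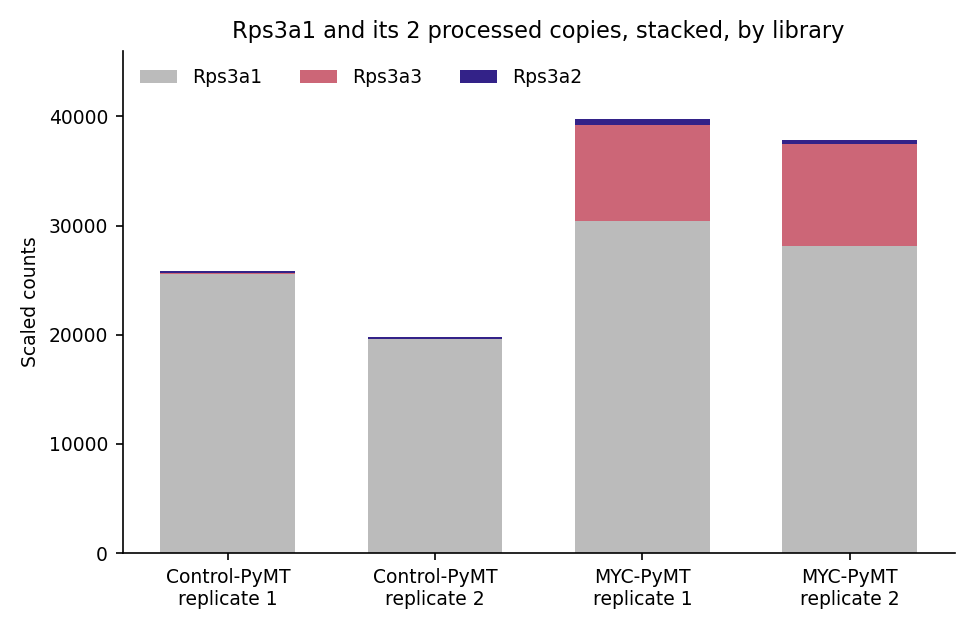
Stacked bars of the scaled counts of Rps3a1, Rps3a3 and Rps3a2 in each of the 4 libraries. The Rps3a3 percentage of a bar is 0.170 and 0.159 in the Control-PyMT libraries and 22.2 and 24.7 in the MYC-PyMT libraries.

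Rps27 (chromosome 3, 90212522 to 90213651, minus strand) and Rpl7 followed Rps3a1 in the order of the 80 genes from the lowest difference, at 3 and 2. Rps27 encodes a zinc-finger protein of the 40S subunit and was at 20703 and 14310 scaled counts in Control-PyMT and at 29727 and 31459.5 in MYC-PyMT. It rose by 0.83 (SE 0.23, limma adjusted p = 0.0139), a call that was lost without Control-PyMT replicate 2 (0.56) and without MYC-PyMT replicate 2 (0.79). Another gene, Rps27rt, holds 98.5% of the 75-base stretches of Rps27, so the Rps27 level is uncertain too; Rps27rt was at 485 ± 131 and 731 ± 39.5 scaled counts (SD, n = 2 each).

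Among the variant genes of the 40S subunit, Rps27l (chromosome 9, 66946086 to 66949516, plus strand) encodes a protein very like RPS27 and is known in human cells as a p53 target. It was at 7466 and 5499 scaled counts in Control-PyMT and at 13218 and 13777.5 in MYC-PyMT. The groups lay apart, and the Control-PyMT libraries differed from each other more than the MYC-PyMT libraries did. Means were 6482 ± 1391 and 13497.5 ± 396 scaled counts (SD, n = 2 each), a log2 difference of 1.07 (SE 0.21), and 0.59 with the trend on gene length removed. Of 22 other p53 targets, 8 rose and 3 fell beside the 23.3% and 24.6% of all genes in those directions, with a median log2 difference of 0.16 against -0.02 over all tested genes. Gdf15, a stress cytokine, rose by 3.77 and Bbc3, which promotes cell death, by 1.40. Fas, a death receptor, fell by 1.66 and Trp53inp1 fell by 1.32 (in this order, limma adjusted p = 0.000167, 0.0112, 0.000508 and 0.00150).

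Of the 60S genes, Rpl22l1 (chromosome 3, 28805436 to 28807424, plus strand) encodes a paralog of RPL22, an RNA-binding protein of the 60S subunit that is not needed for translation as such. Rpl22l1 was at 4944 and 2756 scaled counts in Control-PyMT and at 9639 and 11828 in MYC-PyMT. The groups did not overlap, and the Control-PyMT libraries were far apart. Means were 3850.3 ± 1547 and 10733.5 ± 1548 scaled counts (SD, n = 2 each), a log2 difference of 1.53 (SE 0.27). Its parent Rpl22 was at 21020.5 and 14885 scaled counts in Control-PyMT and at 39420.4 and 46713 in MYC-PyMT, and rose by 1.28 (SE 0.23, limma adjusted p = 0.00167).

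Rpl36al (chromosome 12, 69182731 to 69184083, minus strand) encodes a 60S protein nearly the same as that of Rpl36a. It was at 4027 and 3325 scaled counts in Control-PyMT and at 7719.8 and 8457 in MYC-PyMT. Both MYC-PyMT libraries were above both Control-PyMT libraries. Means were 3676 ± 496 and 8089 ± 522 scaled counts (SD, n = 2 each), a log2 difference of 1.14 (SE 0.19). Rpl36a was at 12807 and 8999.9 scaled counts in Control-PyMT and at 24516 and 31180.3 in MYC-PyMT, and rose by 1.36 (SE 0.23, limma adjusted p = 0.00116).

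Rpl7l1 (chromosome 17, 46773907 to 46782672, minus strand) encodes a factor of 60S assembly related to RPL7. Rpl7l1 was at 6473 and 4689 scaled counts in Control-PyMT and at 8928 and 9221 in MYC-PyMT. The groups did not overlap, and the spread was wider in Control-PyMT. Means were 5581 ± 1262 and 9075 ± 207 scaled counts (SD, n = 2 each), a log2 difference of 0.72 (SE 0.21). Rpl7l1 was no longer among the called genes without Control-PyMT replicate 2 (0.49), MYC-PyMT replicate 1 (0.74) or MYC-PyMT replicate 2 (0.70), nor with no variance trend. Its parent Rpl7 was at 44125.5 and 30454 scaled counts in Control-PyMT and at 69639 and 58252 in MYC-PyMT. Rpl7 rose by 0.80 (SE 0.25, limma adjusted p = 0.0257), a call lost without any single library other than Control-PyMT replicate 1. Of 30 other 60S assembly factors, 29 rose and 0 fell (median 1.49), beside 23.3% and 24.6% of all tested genes in those directions. Nop16 and Wdr12, both nucleolar assembly factors, had the highest differences, 2.03 and 2.02 (limma adjusted p = 3.57e-05 and 5.08e-05). Gnl3l and Rpf1 had the lowest, 0.067 and 0.91 (limma adjusted p = 0.81 and 0.00399).

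Rpl39l and Rpl3l were close to the detection limit. Rpl39l (chromosome 16, 10170226 to 10174911, plus strand), known for its use in male germ cells, had 10 and 17 reads in Control-PyMT, against 11 and 2 in MYC-PyMT. The groups overlapped, and its log2 difference of -1.02 (SE 0.68) rested on the library with 2 reads: without MYC-PyMT replicate 2 it was -0.067. Of 18 germ cell markers, 3 were in the table, with summed levels of 40.2 and 37.4 scaled counts in Control-PyMT, against 50.3 and 47.3 in MYC-PyMT, and 0 of the 2 tested were called, Ddx4 at 0.70 and Zpbp at -0.54 (limma adjusted p = 0.189 and 0.356). Its parent Rpl39 was at 8039 and 4677 scaled counts in Control-PyMT and at 12766 and 14038 in MYC-PyMT, and rose by 1.13 (SE 0.25, limma adjusted p = 0.00503).

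Rpl3l (chromosome 17, 24727820 to 24736143, plus strand), the form of RPL3 used in heart and skeletal muscle, had 5 and 6 reads in Control-PyMT, against 3 and 13 in MYC-PyMT. The groups overlapped, and 3 of the 4 libraries were low. Its highest value was in the library in which 20 striated muscle markers also had their highest summed level: 1016 and 2855 scaled counts in Control-PyMT, against 2706 and 5051 in MYC-PyMT. Of the 19 markers tested, 5 rose (26.3%, beside 23.3% of all tested genes) and 0 fell. Myh4, a fast muscle myosin, and Actn3, a fast-fibre actinin, had the highest differences (3.09 and 2.20, limma adjusted p = 0.0216 and 0.0371). Actn2 and Ttn had the lowest (-0.30 and 0.17, limma adjusted p = 0.686 and 0.815). The part of muscle tissue in the Rpl3l reads was not tested. Its parent Rpl3 was at 33472 and 24951 scaled counts in Control-PyMT and at 74676 and 80845 in MYC-PyMT, and rose by 1.43 (SE 0.24, limma adjusted p = 0.000930).

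The parents follow from the choice of the members. Of 7 parents, 6 rose, beside 23.3% of all tested genes, and Rps3a1 did not pass. All 7 had both MYC-PyMT libraries above, beside 37.0% of all tested genes. Their ranks among the 80 cytosolic ribosomal protein genes ran from 1 for Rps3a1, through 16 for Rpl39, 39 for Rpl22 and 51 for Rpl36a, to 61 for Rpl3. Of the 80, 79 rose (median 1.28). Rpl24 and Rplp2, both of the 60S subunit, had the highest differences, 1.91 and 1.70 (limma adjusted p = 0.000163 and 0.000941), and Rps3a1 and Rpl7 the lowest.

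**Figure D4:**
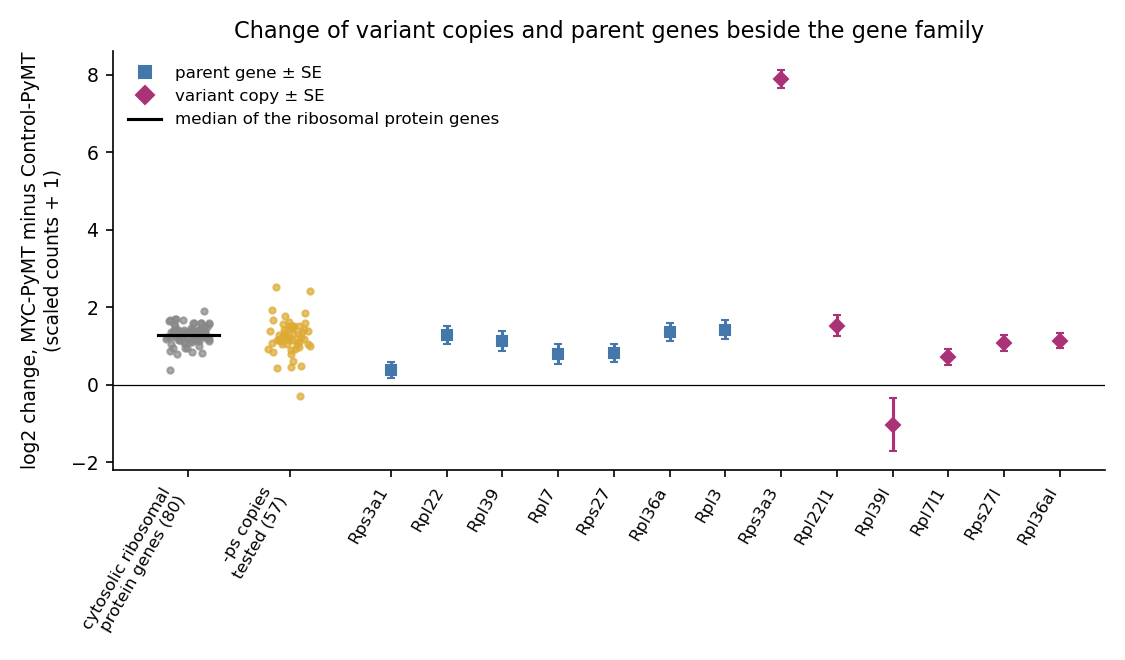
Log2 difference, MYC-PyMT minus Control-PyMT, on log2(scaled counts + 1): dots are single cytosolic ribosomal protein genes and tested -ps copies, squares parents and diamonds the 6 tested members, with bars of 1 SE. The black line is the median of the ribosomal protein genes. Rps3a3 stands at 7.89, above the other copies, which run from -0.29 to 2.52.

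To set copies beside parents on a common scale, scaled counts were divided by kilobases of merged exon and the member was expressed as a percentage of member plus parent. On this scale Rps3a3 was at 0.211% and 0.196% in Control-PyMT and at 26.3% and 29.0% in MYC-PyMT. Rps27l was at 31.5% and 32.9%, and at 36.2% and 35.9%. Rpl22l1 was at 25.6% and 21.3%, and at 26.4% and 27.0%. In these 3 pairs both MYC-PyMT libraries were above both Control-PyMT libraries. For levels, 75.7% of all tested genes did not overlap in either direction, and no such figure was made for shares. Rpl36al was at 27.8% and 31.1%, against 27.8% and 24.9%, and Rpl7l1 at 10.1% and 10.6%, against 8.97% and 10.8%. In both of these pairs the groups overlapped. Rpl39l was at 0.200% and 0.530%, against 0.149% and 0.0270%, and Rpl3l never exceeded 0.0395%. Rpl39l, on 2 to 17 reads a library, had both MYC-PyMT libraries below both Control-PyMT libraries, and Rpl3l overlapped. The level of a share depends on which length is used, while its order over libraries does not: with the reference coding transcript Rps27l was at 20.5% and 23.4% as group means and Rpl22l1 at 15.3% and 17.6%. No test was run on the shares, because the smallest p of an exact two-sided permutation test with 2 libraries a group is 0.33. The shares also carry the uncertainty of members and parents whose stretches occur in other genes.

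**Figure D5:**
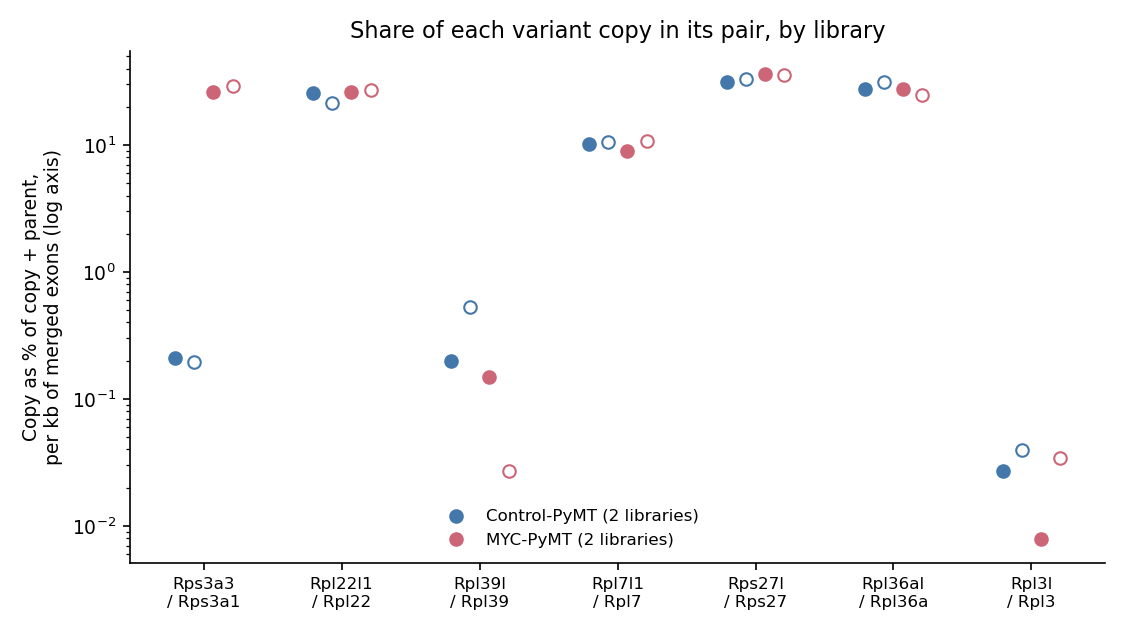
Member as a percentage of member plus parent, per kilobase of merged exon, on a log axis, in blue for Control-PyMT and red for MYC-PyMT, filled for replicate 1 and open for replicate 2. Rps3a3 moves from 0.211% and 0.196% to 26.3% and 29.0%, while Rpl36al and Rpl7l1 overlap between groups.

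Per kilobase of merged exon, the members were ordered in Control-PyMT as Rps27l (9149 and 6739), Rpl36al (2976 and 2458), Rpl22l1 (2486 and 1386), Rpl7l1 (1852 and 1342), Rps3a3 (55.3 and 39.5), Rpl39l (11.3 and 17.4) and Rpl3l (2.85 and 3.10). Rpl36al, Rpl22l1 and Rpl7l1 overlapped in turn with their neighbour in this order, and the rest did not. In MYC-PyMT Rps3a3 stood second on this scale, at 11122 and 11729, below Rps27l at 16198 and 16884 and above Rpl36al at 5706 and 6251. Rpl36al and Rpl22l1 (4846 and 5947) again overlapped. The order depends on the length used: per kilobase of the reference coding transcript, the MYC-PyMT means of Rpl22l1 and Rpl36al were above that of Rps3a3.

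Other processed copies were set beside Rps3a3. The table held 111 genes with a -ps symbol that names a ribosomal protein copy, and 104 of them had a higher mean in MYC-PyMT. The share of all genes with a higher mean was not computed. Of 57 tested, 40 rose and 0 fell, beside 23.3% and 24.6% of all tested genes in those directions. Their median log2 difference was 1.25, beside 1.28 for the 80 cytosolic ribosomal protein genes. A copy of Rpl3 among them holds 78.5% of the 75-base stretches of Rpl3. Whether reads of the parents were counted to these copies was not tested. The log2 differences of the 57 ran from -0.29 for Rpsa-ps12 to 2.52 for Rps12-ps3. Rps12-ps3 went from 1.87 and 3.40 scaled counts to 14.1 and 26.4, and Rpsa-ps9 from 12.2 and 11.9 to 67.4 and 69.2. Rpsa-ps1 was the next highest, at 1.94, and Rps19-ps3 and Rpl19-ps1 followed Rpsa-ps12 from below, at 0.42 and 0.46. All 111 together had 10943 and 8421 scaled counts in Control-PyMT, against 23106 and 23684 in MYC-PyMT. Rps3a3 alone went from 37.7 to 9083 as group means. It was chosen on this contrast and had the highest difference of all tested genes. Its place above the 57 tested copies was thus fixed in advance.

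Genes whose centred log2 values over the 4 libraries were nearest to each member were named as a description. For Rps3a3 these were Epha8 (Euclidean distance 1.64), Otogl (1.77) and Lingo3 (2.11), all farther away than any gene named for the other members. For Rps27l they were Cdkn2aipnl (0.0119), Dph5 (0.0301) and Etf1 (0.0328), and for Rpl36al Sgol2a (0.0207), Chchd7 (0.0285) and Sdhb (0.0325). Rpl7l1 was nearest to Haus2 (0.0313), Gins4 (0.0321) and Cse1l (0.0416), and Rpl22l1 to Ndufb4 (0.0342), Msr1 (0.0458) and Nxpe3 (0.0759). Rpl39l was nearest to Adcy8 (0.301), Exph5 (0.547) and Inpp5j (0.562). The distances rest on 4 libraries and carry no test. Rps3a3 was chosen on this contrast and had the highest log2 difference of all tested genes, so nothing is read from its larger distances. Epha8, Otogl and Lingo3 were near the floor in Control-PyMT, with means of 0.425, 0.849 and 4.76 scaled counts.

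The letters CACGTG, the sequence of an E-box that MYC is known to bind, were searched in RefSeq promoter windows (GRCm38), 250 bases before to 50 after a start; they read the same on both strands. They were in 0 of 8 windows of 6 members and in 0 of 6 windows of 5 parents, beside 8 of 69 windows (11.6%) of ribosomal protein genes and 7.15% of all 32851 windows. A match is a description and not a site.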

How the data were processed

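Poly(A)-selected stranded libraries from 4 bulk tumours were measured, 2 per group. Reads were aligned with HISAT2 to mm10 (GRCm38.p5) and DESeq2 was used, per the submitters' processing notes; the read counter, strand setting, read length and annotation used were not given in the sources used here. The deposited signal is scaled counts by the authors: in every library 100% of values were whole multiples of 1 read (tolerance 0.01 reads), so whole reads were recovered. RNA integrity varied widely per the labels' protocols and is not tied to libraries. The members, parents and gene lists were chosen with earlier results of these data known.

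Tests used limma 3.58.1 (lmFit, eBayes with a variance trend; R 4.3.3) on log2(scaled count + 1), two-sided, over 16725 genes with at least 10 scaled counts in at least 2 libraries, with Benjamini-Hochberg adjustment over all of them and a threshold of 0.05. Log2 differences are on that scale, which understates the change of low genes. The procedure was also run on simulated counts with a small set of changed genes, and nothing here rests on that run. Named genes were the members and parents, the 2 highest and 2 lowest tested genes of each list, the 3 highest and 3 lowest -ps copies, the 3 nearest genes per member (higher group mean at least 50), and the gene around Rps3a3; Myc, Rps27rt, Gm15421, Gm33051 and Gm49383 were added after their values were seen. Gene positions, transcripts and lengths came from GENCODE mouse release 21 (GRCm38), and candidate copies were found with BLAST 2.17.0. Alternatives were pseudocounts, level filters, scalings, no variance trend, a replicate block, single libraries left out, a length trend removed, 3 lengths for shares (the reference coding transcript chosen after seeing the data), and edgeR 4.0.16 and DESeq2 1.42.0 on recovered reads.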

Additional observations from a re-analysis of the deposited data

How the results depend on the processing

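The count of genes changed was 8010, and leaving out 1 library, where the lone library of its group is assumed to vary like the other group, gave 5236 (without Control-PyMT replicate 2) to 6480. edgeR on recovered reads gave 7925 and DESeq2 7293. Members called were 5 and ranged from 4 to 5 when 1 library was left out; without MYC-PyMT replicate 1 the 5 included Rpl39l, lower, and not Rpl7l1. Parents called were 6, ranging from 4 to 6, and cytosolic ribosomal protein genes 79, ranging from 74 to 78. With no variance trend 4 members and 4 parents were called. Rps3a1 reversed to -0.032 with the length trend removed, and Rps27 then was at 0.44 (adjusted p = 0.138); log2 difference and gene length had a Spearman correlation of -0.179 over 16666 genes (genes are no independent replicates). The log2 difference of Rps3a3 ran from 7.40 to 8.13 over the alternatives that kept it apart from Rps3a1, and the sum of both was at 0.77. No alternative changed the copy to which a read was counted. Upper-quartile scaling moved the median of all genes from -0.02 to -0.12. The groups share replicate numbers, and a replicate block called 8039 genes, 5 members, 6 parents and 79 ribosomal protein genes. Deviations of same-numbered libraries correlated at -0.0886 across genes. That value rests on 1 difference per group, so it cannot tell whether same-numbered libraries shared more than a number. The shares of every member but Rps3a3 moved with the length used, that of Rpl39l from 0.365% to 0.161% in Control-PyMT and from 0.0882% to 0.0389% in MYC-PyMT with the reference coding transcript. Rpl39l and Rpl3l are limited by depth, at 2 to 17 reads a library. The cause of these dependences was not tested.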
